A study of Rattus norvegicus with 3 samples.

Results

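The genes that load peptides onto major histocompatibility complex (MHC) molecules were examined in rat retina after ischemia, together with the MHC genes themselves. Members were all table entries whose symbol begins with RT1-, the prefix of rat MHC genes, plus B2m, Tap1, Tap2, Tapbp, Tapbpl, Erap1, Cd74, Nlrc5, Ciita, Psmb8, Psmb9, Psmb10, Psme1 and Psme2. This gave 45 genes of 32883. They comprised 21 RT1 class I genes, 10 RT1 class II genes and 14 genes of processing, loading and control. All 3 libraries came from retinas of Sprague-Dawley rats at postnatal day 60, sequenced after removal of ribosomal RNA. The CTL retina is labelled as untreated, although the protocol tells of sham eyes cannulated at 2.66 kPa. For HIOP, pressure in the eye was held at 110 mmHg for 60 min, which stops retinal blood flow, and the retina was taken 12 h later. For HIOP_GSK, a drug named only as GSK was injected into the anterior chamber 24 h before the same procedure. No library from a vehicle-injected eye is described, and the number of animals behind each library is not given in the sources used here.

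MHC class I molecules consist of an RT1-encoded heavy chain and beta-2-microglobulin and show peptides from inside the cell to CD8 T cells. The peptides are cut by the proteasome, in which interferon replaces the catalytic subunits by those of the immunoproteasome, then pumped into the endoplasmic reticulum by TAP and loaded by tapasin. Class II molecules show peptides from ingested protein to CD4 T cells, are guided by the invariant chain Cd74, and are made mainly by professional antigen-presenting cells. NLRC5 and CIITA are the transactivators of class I and class II genes. The normal retina, an immune-privileged tissue, expresses little MHC.

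The CTL library held 16090064 counts, the HIOP library 17221510 and the HIOP_GSK library 15132754. Each group is 1 library, so differences are without a replicate check and without p-values. Levels are given as CPM (counts per 1e+06 scaled counts) after scaling by trimmed mean of M-values (TMM). Ratios of scaled counts carry a 95% exact interval that covers counting error only, not the spread between animals. A gene was compared if its CPM reached 1 in at least 1 library, and the limit for calling it higher or lower was 2-fold on the log2 ratio of CPM with a prior count of 2. Of the 45 members, 30 passed, 26 of them already in CTL. RT1-CE5, RT1-T24-3, RT1-Db1 and Psmb8 passed only through an ischemic library, so their direction was partly set by the filter. The remaining 15, which were 9 class I and 6 class II genes, had at most 15 counts in any library.

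The promoters of several members are shown because short motifs of immune gene control recur in them, and RT1-M3-1 is shown as a class I gene with little difference between libraries. The windows run from 250 bases before to 50 bases after the transcription start and come from RefSeq on the GRCr8 assembly, which is not the assembly of the counts. RefSeq windows were matched for 38 of 45 members and 26 of the 30 that passed. Capitals mark the letters of an interferon-stimulated response element (ISRE, GAAA and GAAA with 2 bases between them), a gamma-activated site (GAS, TTCNNNGAA), a nuclear factor kappa B site (kB, GGGA and CC with 4 bases between them) or an X2 box (TGACGNNA), on either strand. All are printed 5′ to 3′ in the direction of transcription.
B2m, chr3:129549080-129549379, plus strand: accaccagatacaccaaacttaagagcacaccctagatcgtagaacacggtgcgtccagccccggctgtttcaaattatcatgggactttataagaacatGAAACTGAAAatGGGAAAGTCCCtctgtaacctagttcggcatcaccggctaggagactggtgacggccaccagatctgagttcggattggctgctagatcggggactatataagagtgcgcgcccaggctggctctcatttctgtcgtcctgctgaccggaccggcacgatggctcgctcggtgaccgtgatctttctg
Tap1, chr20:4668494-4668793, minus strand: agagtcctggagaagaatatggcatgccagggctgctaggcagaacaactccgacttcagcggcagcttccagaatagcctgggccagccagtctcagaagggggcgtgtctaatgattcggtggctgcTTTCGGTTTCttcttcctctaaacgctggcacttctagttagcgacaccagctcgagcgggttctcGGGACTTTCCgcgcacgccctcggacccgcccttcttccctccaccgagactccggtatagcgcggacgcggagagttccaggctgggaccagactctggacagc
Psmb8, chr20:4656982-4657281, minus strand: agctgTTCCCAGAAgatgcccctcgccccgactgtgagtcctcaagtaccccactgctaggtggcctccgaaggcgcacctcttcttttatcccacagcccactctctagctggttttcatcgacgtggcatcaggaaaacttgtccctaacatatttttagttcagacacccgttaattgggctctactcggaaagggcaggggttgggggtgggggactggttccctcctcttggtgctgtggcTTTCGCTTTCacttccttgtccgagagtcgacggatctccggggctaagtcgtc
Psmb10, chr19:50743243-50743542, minus strand: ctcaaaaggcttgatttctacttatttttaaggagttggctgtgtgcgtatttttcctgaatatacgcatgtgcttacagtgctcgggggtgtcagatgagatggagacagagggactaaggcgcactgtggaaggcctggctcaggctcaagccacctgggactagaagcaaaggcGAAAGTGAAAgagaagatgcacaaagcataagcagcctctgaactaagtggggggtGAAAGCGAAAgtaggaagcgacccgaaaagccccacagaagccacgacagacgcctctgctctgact
RT1-A2, chr20:4872621-4872920, plus strand: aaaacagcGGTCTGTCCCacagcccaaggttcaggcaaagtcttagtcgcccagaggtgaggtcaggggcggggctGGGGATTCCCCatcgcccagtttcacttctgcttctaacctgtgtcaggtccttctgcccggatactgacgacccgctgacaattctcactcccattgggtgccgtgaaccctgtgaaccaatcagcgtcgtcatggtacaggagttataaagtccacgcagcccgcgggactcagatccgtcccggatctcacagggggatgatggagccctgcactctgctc
RT1-M3-1, chr20:1333317-1333616, minus strand: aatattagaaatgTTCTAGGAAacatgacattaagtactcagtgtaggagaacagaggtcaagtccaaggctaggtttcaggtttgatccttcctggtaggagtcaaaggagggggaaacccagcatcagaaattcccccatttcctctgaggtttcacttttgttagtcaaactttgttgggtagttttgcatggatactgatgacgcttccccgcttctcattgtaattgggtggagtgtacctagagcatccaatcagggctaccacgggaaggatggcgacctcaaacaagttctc
RT1-Ba, chr20:4576807-4577106, plus strand: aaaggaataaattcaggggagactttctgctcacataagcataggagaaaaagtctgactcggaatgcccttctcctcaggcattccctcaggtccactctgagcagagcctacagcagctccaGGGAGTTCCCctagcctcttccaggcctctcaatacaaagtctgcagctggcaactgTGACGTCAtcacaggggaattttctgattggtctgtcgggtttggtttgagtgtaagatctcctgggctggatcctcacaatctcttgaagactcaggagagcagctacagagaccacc

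ISRE letters, the binding motif of interferon regulatory factors, stood in 9 of the 26 members' windows. Among all 33469 promoter windows of the same length 3.92% held them, and 3.12% of the 12013 windows of genes that passed the filter. B2m holds GAAACTGAAA, beside a kB site. Tap1 holds TTTCGGTTTC, the same motif read on the other strand, and a kB site. Psmb10 holds 2 copies, GAAAGTGAAA and GAAAGCGAAA, and Psmb8 holds TTTCGCTTTC at its start. The other 5 are Psme2, Tapbp, Tap2 and the class I genes RT1-S3 and RT1-N3. Thus 7 of 18 members higher in HIOP and 2 of 8 others held the motif. None of the 4 class II windows did. Psmb9 and Tap1 lie head to head, with starts 457 bases apart on GRCr8, so the ISRE and kB letters in the Tap1 window lie between both starts.

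The kB letters occurred in 11 of the 26 windows, against 19.3% of all promoter windows and 25% of those of genes that passed the filter. In 5 class I promoters the run around these letters is nearly the same and is printed with 10 flanking bases on the left to show the likeness of the paralogs. Capitals mark the kB run, of which the last base in RT1-CE5 is not part of the matched letters GGAGATTCCC.
RT1-A2, chr20:4872687-4872716, plus strand: gggcggggctGGGGATTCCCCatcgcccag
RT1-CE10, chr20:3385154-3385183, minus strand: gggcggggctGGGGATTCCCCatctcccag
RT1-CE4, chr20:3509331-3509360, minus strand: gggcggggcaGGGGATTCCCCaacttccca
RT1-A1, chr20:4907073-4907102, plus strand: gggcggggctGGGGATTCCCCatctcccca
RT1-CE5, chr20:3484238-3484267, minus strand: gggcggagctGGAGATTCCCCatctcccct

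RT1-A2, RT1-CE10, RT1-CE4 and RT1-A1 share the run GGGGATTCCCC, while RT1-CE5 has another base in it. RT1-A2, RT1-CE10 and RT1-CE4 had the largest ratios of the class I genes in HIOP over CTL, whereas RT1-A1 and RT1-CE5, with like letters, stayed within 2-fold by counts. By the deposited TPM, RT1-A1 and RT1-CE5 had ratios of 3.96 and 2.05, so their place within 2-fold rests on the counts. The TPM ratios of RT1-A2, RT1-CE4 and RT1-CE10 were still larger, at 7.34, 8.16 and 13.8, the last from a TPM of 0.08 in CTL. RT1-M3-1, which was not higher in HIOP, held a GAS but no ISRE or kB letters in its window. X2 letters were found in 4 windows, against 7.11% of all and 10.2% of those of genes that passed the filter, among them the palindrome TGACGTCA of RT1-Ba. CCAAT, the core of the Y box, was found in 19 of 26 and in 37.5% of all windows. GAS letters were found in 2 of 26 windows and in 8.87% of all. A match describes the letters and does not show that a factor binds there.

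The first question was how antigen presentation genes stood 12 h after ischemia, in HIOP against CTL. Among genes of class I presentation, the activator Nlrc5, the 5 immunoproteasome genes, Tap1, B2m and 8 of 12 RT1 class I genes reached 2-fold upward in HIOP. The other 4 loading genes, Tap2, Tapbp, Tapbpl and Erap1, stayed within 2-fold. Class II genes were also higher, but at far lower counts. Of the 30 members that passed, 20 lay at or above 2-fold in HIOP and none at or below its inverse, while 9.0% of all 15543 compared genes were higher and 8.04% lower. The median log2 ratio of the 30 was 1.21, against 0.00 over all compared genes. Among the 26 members that passed in CTL, 17 were at least 2-fold higher, against 6.21% of the 14628 genes that did so. No library had a replicate, so these counts describe these retinas and not ischemia in general.

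**Figure D1:**
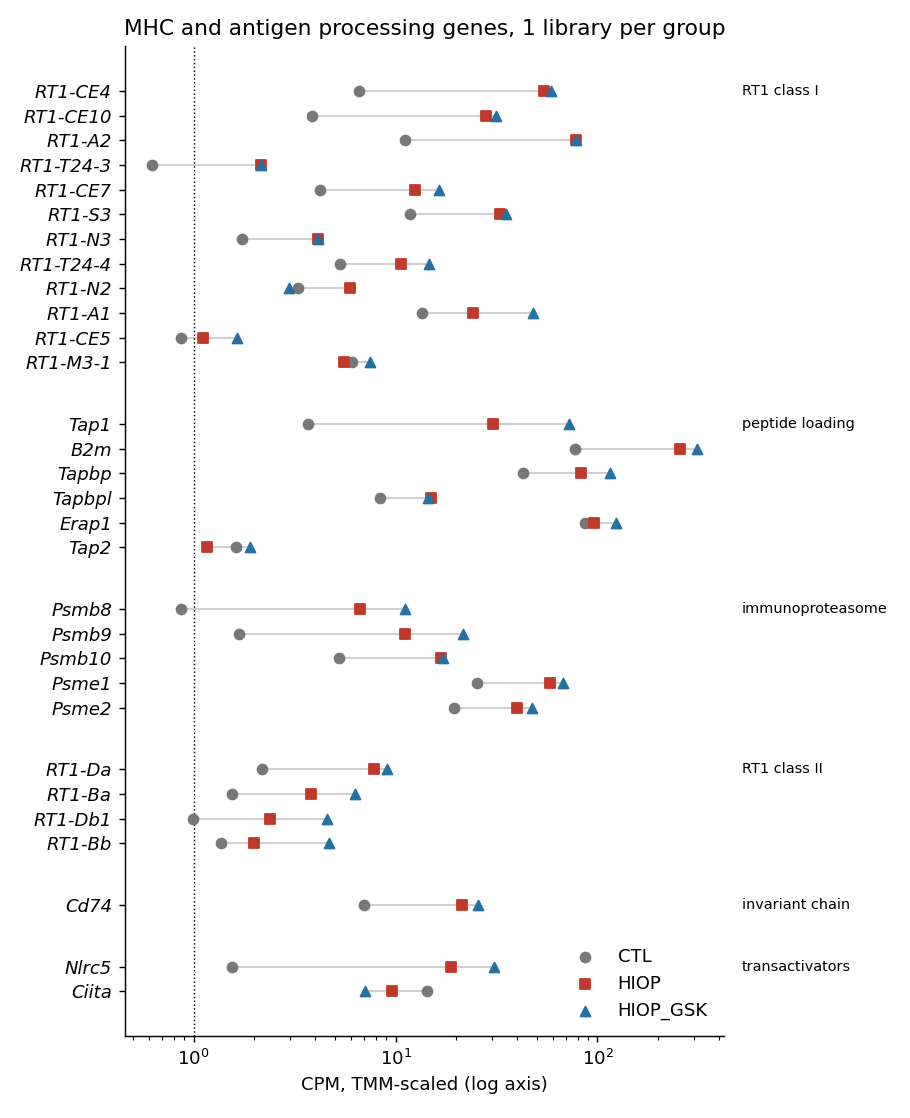
Level of each of the 30 members in each library, as TMM-scaled CPM on a log axis, with 1 library per group and the filter at 1 CPM as a dotted line. CTL (grey circles) is lowest for most members; Ciita is the member for which CTL is highest, at 14.4 CPM.

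The activators of the pathway differed in direction. Nlrc5 (ENSRNOG00000048222), the transactivator of class I genes, had 25 counts in CTL, 323 in HIOP and 470 in HIOP_GSK, so both ischemic libraries were far above CTL. Its ratio of 12.1 (8.08 to 19.1) in HIOP over CTL was the largest of the 30 members. Ciita (ENSRNOG00000002659), the master regulator of class II genes, had 231, 165 and 108 counts in CTL, HIOP and HIOP_GSK. Its level was thus highest in CTL and lowest in HIOP_GSK, opposite to the class II genes. It was 1.49-fold lower in HIOP (1.21 to 1.83), within the 2-fold limit. Interferon gamma is a known inducer of both. Ifng had no count in any library, which allows up to 0.186, 0.175 and 0.197 CPM in CTL, HIOP and HIOP_GSK (3 counts). The part of interferon gamma in these differences was not tested.

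Among the 12 class I genes that passed, 8 reached 2-fold in HIOP over CTL, 4 stayed within it, and the median log2 ratio was 1.33. RT1-A2 (ENSRNOG00000030712), a classical class I heavy chain gene, had 179 counts in CTL, 1333 in HIOP and 1196 in HIOP_GSK. Both ischemic libraries stood well above CTL and close to each other, and the ratio of HIOP to CTL was 7.002 (5.99 to 8.23). RT1-CE4 (ENSRNOG00000039744), in the class I C/E region of the MHC, had 106, 933 and 897 counts and was 8.28-fold higher (6.76 to 10.2). RT1-CE10, of the same region, had 62, 479 and 478 counts and was 7.26-fold higher (5.57 to 9.62). The order of the libraries in these genes was the same, with CTL low and the ischemic libraries similar. RT1-S3 had 190, 562 and 535 counts (2.78-fold, 2.36 to 3.30) and RT1-CE7 had 68, 213 and 249 (2.95-fold, 2.23 to 3.93). The other class I genes past 2-fold, RT1-N3, RT1-T24-3 and RT1-T24-4, had ratios of 2.38, 3.48 and 2.02, and the intervals of all these included 2.

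RT1-M3-1 (ENSRNOG00000000763), the rat counterpart of the mouse gene for a class I molecule that presents formylated bacterial peptides, had 98, 95 and 114 counts, a ratio of 0.911 (0.680 to 1.22) in HIOP over CTL. RT1-CE5, with 14, 19 and 25 counts, likewise had an interval that included 1 (1.28, 0.607 to 2.75). The share of RT1-M3-1 in all class I counts was 8.68% in CTL and 2.12% in HIOP. RT1-A1 (ENSRNOG00000038999), the other classical gene, had 218, 413 and 732 counts and was 1.78-fold higher in HIOP (1.51 to 2.11). By TPM, which allows levels of genes to be compared, RT1-A2 made up 20.1% of class I in CTL and 45.8% in HIOP, and RT1-A1 made up 4.98% and 6.13%. By counts the shares were 15.9% and 29.8% for RT1-A2, and 19.3% and 9.23% for RT1-A1. The direction of the RT1-A1 share thus differed between counts and TPM.

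RT1 class I genes are close paralogs and vary between rat strains, so the split of reads among them is uncertain. In the RefSeq annotation of GRCr8, 12 of the 30 members overlap another annotated gene, most of them class I genes. The sum over a family does not depend on how the counted reads were split. It can lose reads of alleles that differ from the reference, and reads shared by paralogs if these were not counted. All 21 class I genes together had 1129 counts in CTL, 4473 in HIOP and 4624 in HIOP_GSK, or 70.1, 261 and 304 CPM. The class I sum was 3.73-fold higher in HIOP than in CTL (3.49 to 3.98), and 3.11-fold without RT1-A2 (2.89 to 3.35). With the deposited TPM (transcripts per 1e+06, which corrects for gene length), the class I sum was 47.0 in CTL, 151 in HIOP and 181 in HIOP_GSK, a ratio of 3.21 for HIOP over CTL.

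**Figure D2:**
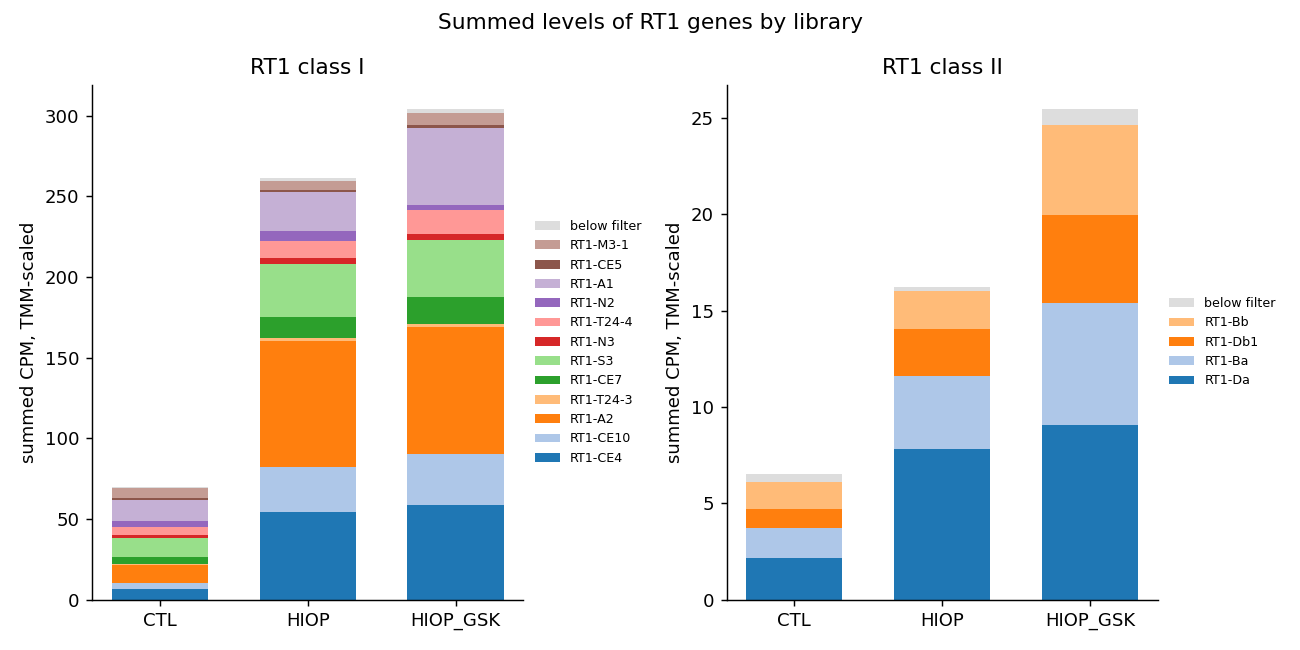
Summed TMM-scaled CPM of RT1 class I genes (left) and RT1 class II genes (right) in each library, stacked by gene, with genes below the filter in grey. The class I sum was 70.1 CPM in CTL, 261 in HIOP and 304 in HIOP_GSK; the class II panel has a smaller axis, with sums of 6.52, 16.2 and 25.4.

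The light chain and the loading genes differed among themselves. B2m (ENSRNOG00000017123), the shared light chain of class I molecules, had 1248, 4372 and 4714 counts in CTL, HIOP and HIOP_GSK, and was 3.29-fold higher in HIOP than in CTL (3.09 to 3.51). This ratio lies near that of the class I sum. Tap1 (ENSRNOG00000000457), a subunit of the peptide pump, had 59, 520 and 1103 counts, each library above the one before. It was 8.29-fold higher in HIOP (6.32 to 11.04) by counts but 2.48-fold by TPM (5.64, 13.99 and 39.88). Tap2 (ENSRNOG00000046031), the other pump subunit, had only 26, 20 and 29 counts, a ratio of 0.723 (0.383 to 1.35), and is listed at a TPM of 0 in all 3 libraries. The counting of Tap2 is therefore uncertain, and no difference was detectable at this depth. Tapbp, which encodes tapasin, had 685, 1424 and 1750 counts, or 1.95-fold more in HIOP (1.78 to 2.14). Tapbpl, a tapasin-related peptide editor, had 135, 257 and 221 (1.79-fold, 1.45 to 2.22). Erap1, which trims peptides in the endoplasmic reticulum, had 1391, 1650 and 1883 counts and a ratio of 1.12 (1.04 to 1.20).

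All 5 members of the immunoproteasome and its activator reached 2-fold in HIOP over CTL, and their median log2 ratio was 1.67. Psmb8 (ENSRNOG00000000456) and Psmb9 (ENSRNOG00000000459) encode catalytic subunits that lie in the MHC beside the TAP genes. Psmb8 had 14, 114 and 170 counts in CTL, HIOP and HIOP_GSK, a ratio of 7.66 for HIOP over CTL (4.38 to 14.4). Psmb9 had 27, 191 and 329, a ratio of 6.65 (4.43 to 10.4). In both genes CTL was lowest and HIOP_GSK highest. Psmb10 (ENSRNOG00000019494), the third catalytic subunit, lies outside the MHC and had 84, 288 and 261 counts and was 3.22-fold higher (2.52 to 4.16). Psme1 and Psme2 encode the PA28 activator that caps the proteasome. They had smaller ratios, 2.30 (2.05 to 2.59) from 407, 996 and 1030 counts and 2.05 (1.79 to 2.35) from 314, 683 and 722. The interval of Psme2 included 2.

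The immune subunits were set against the constitutive subunits they replace, using TPM within each library. Psmb9 stood at 0.0435 of Psmb6 in CTL, 0.210 in HIOP and 0.386 in HIOP_GSK. Psmb10 stood at 0.117, 0.294 and 0.352 of Psmb7. Psmb8 stood at 0.0161, 0.106 and 0.134 of Psmb5. In these 3 pairs the constitutive transcript was the more abundant one in every library, and the ratio was higher in both ischemic libraries. Psme1 was at 0.933 of Psme3, the subunit of another proteasome activator, in CTL, and at 1.35 and 1.85 in HIOP and HIOP_GSK. Of 6 other proteasome genes listed for comparison (Psmb5, Psmb6, Psmb7, Psme3, Psme4 and Pomp), none was 2-fold different in HIOP, and 0.37 was their median log2 ratio.

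**Figure D3:**
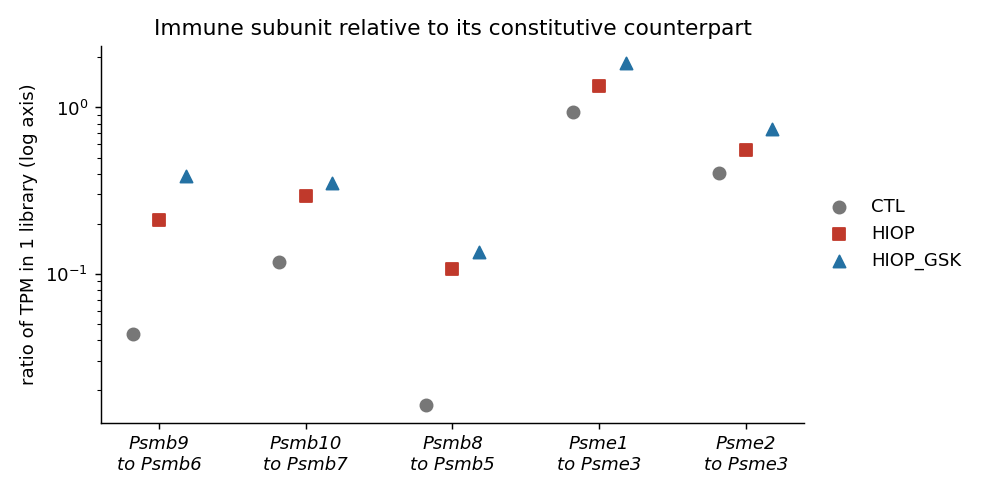
TPM of each immune proteasome subunit divided by the TPM of its constitutive counterpart in the same library, on a log axis, for CTL, HIOP and HIOP_GSK. The activator genes Psme1 and Psme2 are divided by Psme3, a subunit of another activator and not a form they replace. CTL is lowest and HIOP_GSK highest for all 5 pairs, with Psmb9 to Psmb6 spanning 0.0435 to 0.386.

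Class II genes were sparse. Of 10 members, 4 passed the filter and 3 of these reached 2-fold in HIOP over CTL, with 1.20 as the median log2 ratio. RT1-Da (ENSRNOG00000032844), an alpha chain corresponding to human HLA-DRA, had 35, 134 and 138 counts in CTL, HIOP and HIOP_GSK, and was 3.60-fold higher in HIOP (2.47 to 5.38). RT1-Ba and RT1-Bb, the alpha and beta chains corresponding to human DQ, had 25, 65 and 96 counts and 22, 34 and 71 counts. In HIOP over CTL their ratios were 2.44 (1.52 to 4.05) and 1.45 (0.826 to 2.61), so the second could not be told from no difference by counting error alone. RT1-Db1, a DR-type beta chain, had 16, 41 and 70 counts and was 2.41-fold higher (1.32 to 4.60). RT1-DMa, RT1-DMb, RT1-DOa and RT1-DOb, which take part in the peptide editing of class II molecules or its control, had at most 5 counts in any library. RT1-Ha had none. Cd74 (ENSRNOG00000018735), the invariant chain, had 112, 365 and 391 counts and was 3.06-fold higher in HIOP (2.47 to 3.82). All 10 class II genes together had 105, 278 and 387 counts, and their ratio in HIOP over CTL was 2.49 (1.98 to 3.15). By TPM, Cd74 was at 10.05, 28.2 and 34.95 and RT1-Da at 2.65, 8.84 and 12.83, against 68.2, 202 and 259 for B2m.

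**Figure D4:**
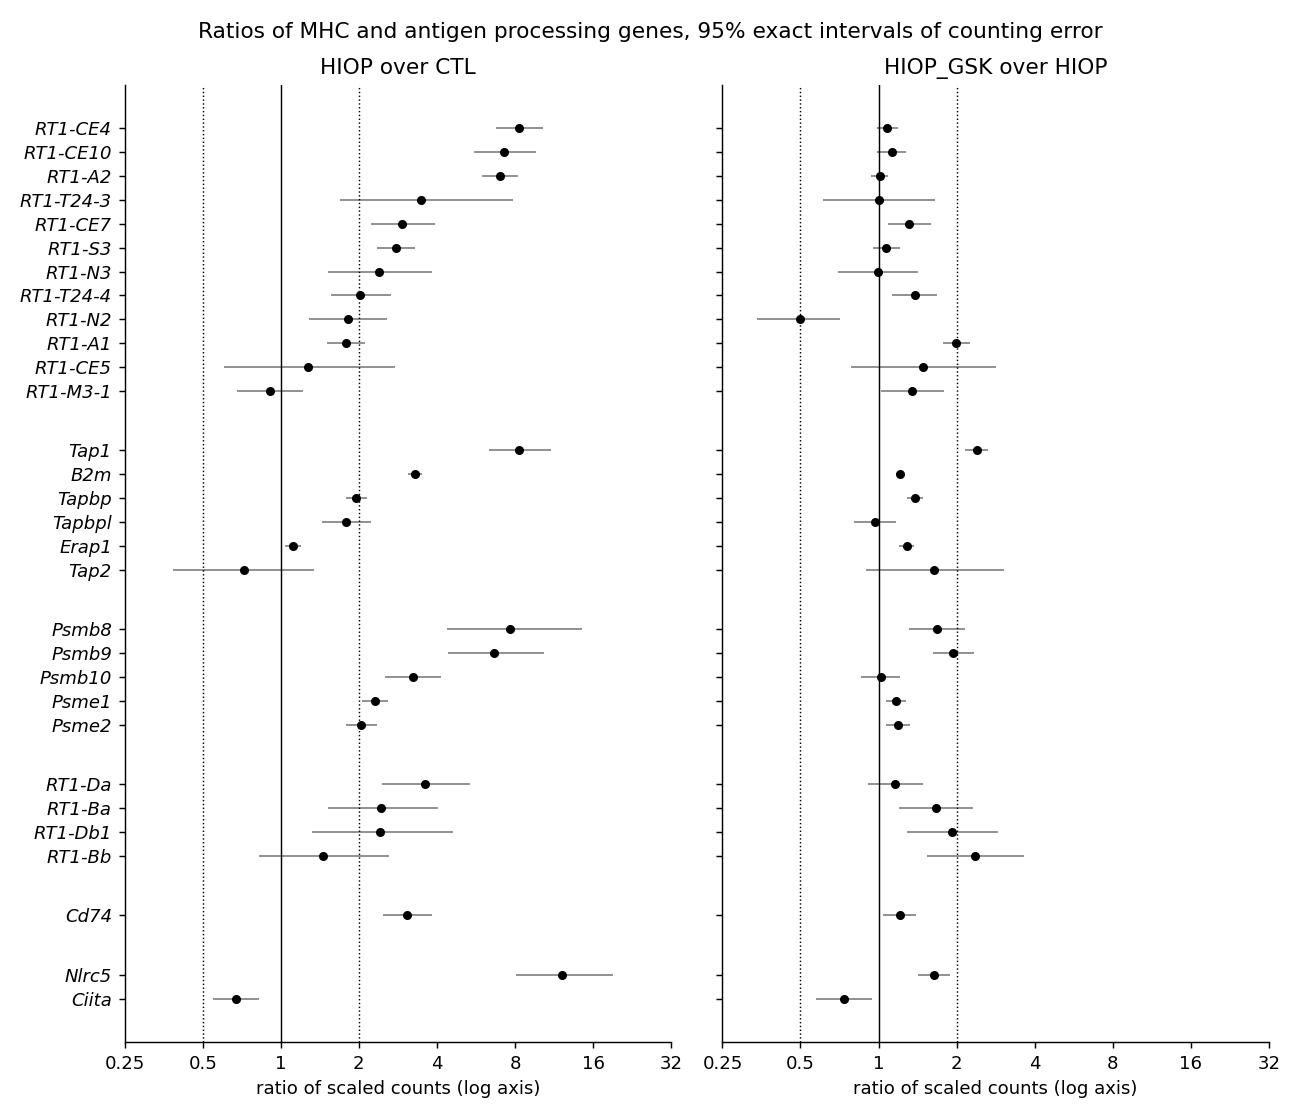
Ratio of scaled counts for each of the 30 members, in HIOP over CTL (left) and HIOP_GSK over HIOP (right), on log axes, with bars for the 95% exact interval of counting error and dotted lines at 2-fold. On the left 20 members lie at or above 2-fold; on the right most lie between 1 and 2, with Tap1 at 2.39 and RT1-Bb at 2.35.

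HIOP_GSK against HIOP sets the same genes side by side with and without the drug before ischemia. This comparison shares the HIOP library with the one above, so their values are not independent. Most members differed little between the ischemic libraries, and 26 of the 30 log2 ratios were above 0, against 7709 of all 15543 compared genes. Only Tap1 and RT1-Bb were at least 2-fold higher, 2 of 30 members, and none was at least 2-fold lower, against 4.56% and 1.69% of all compared genes. The share of members higher was thus near that of all genes. The median log2 ratio was 0.32, against 0.00 over all compared genes. At a limit of 1.5-fold, 9 members were higher and 1 lower, where 9.68% of all genes were higher and 4.82% lower.

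In HIOP_GSK over HIOP, Tap1 was 2.39-fold higher (2.15 to 2.65), and its neighbour Psmb9 was 1.94-fold higher (1.62 to 2.33). Psmb8 was 1.68-fold (1.32 to 2.15) and Nlrc5 1.64-fold higher (1.42 to 1.89). Within the classical class I genes, RT1-A1 was 1.99-fold higher (1.77 to 2.26), whereas RT1-A2 had a ratio of 1.01 (0.933 to 1.09). RT1-CE4, RT1-CE10 and RT1-S3 likewise had ratios of 1.08, 1.12 and 1.07, and their intervals all included 1. RT1-N2, with 53, 102 and 45 counts in CTL, HIOP and HIOP_GSK, had the lowest ratio, 0.496 (0.341 to 0.711), and a log2 ratio of -0.98 with the prior count, within the limit. By TPM that gene was at 2.26, 4.35 and 3.54, a ratio of 0.814. B2m had a ratio of 1.21 (1.16 to 1.26), Psmb10 one of 1.02 (0.859 to 1.21) and the class I sum one of 1.16 (1.12 to 1.21).

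Of the 4 class II genes, 1 reached 2-fold in HIOP_GSK over HIOP. The class II sum had a ratio of 1.57 (1.34 to 1.83), and of 2.09 by TPM. RT1-Bb was 2.35-fold (1.54 to 3.65), RT1-Db1 1.92-fold (1.29 to 2.90) and RT1-Ba 1.66-fold higher (1.20 to 2.31). RT1-Da had a ratio of 1.16 (0.907 to 1.48) and Cd74 one of 1.21 (1.04 to 1.39). Ciita had a ratio of 0.736 (0.572 to 0.944).

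Against CTL, 23 of the 30 members were at least 2-fold higher in HIOP_GSK and 1 at least 2-fold lower, with 10.4% of all compared genes higher and 6.32% lower. This comparison shares a library with each of the others. Nlrc5 was 19.9-fold (13.3 to 31.05), Tap1 19.8-fold (15.2 to 26.2; 7.07-fold by TPM), Psmb9 12.9-fold (8.70 to 19.9) and Psmb8 12.8-fold higher (7.45 to 24.0). The class I sum was 4.33-fold (4.06 to 4.63) and the class II sum 3.90-fold higher (3.13 to 4.88). The lower member was Ciita, 2.02-fold below CTL (1.60 to 2.57). Its log2 ratio lay on the limit, and it no longer passed with total counts, with a prior count of 10 or when mitochondrial and the 20 most abundant genes were left out of the scaling.

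Where counts and TPM could both be compared, they gave different ratios for some members. In HIOP over CTL, 6 of 29 members had ratios more than 1.5 times apart, and Tap1 was the one outside the RT1 genes. RT1-A1 was 1.78-fold higher by counts and 3.96-fold by TPM, RT1-CE10 7.26-fold and 13.8-fold, and RT1-Ba 2.44-fold and 1.23-fold. In HIOP_GSK over HIOP, 4 of 29 were that far apart, all RT1 genes, led by RT1-CE10 (1.12 and 4.43) and RT1-Ba (1.66 and 5.62). In HIOP_GSK over CTL, 6 of 29 were that far apart, among them RT1-CE10 (8.16 and 60.9) and Tap1 (19.8 and 7.07). The size of the difference in these genes is therefore uncertain, and the cause was not tested.

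**Figure D5:**
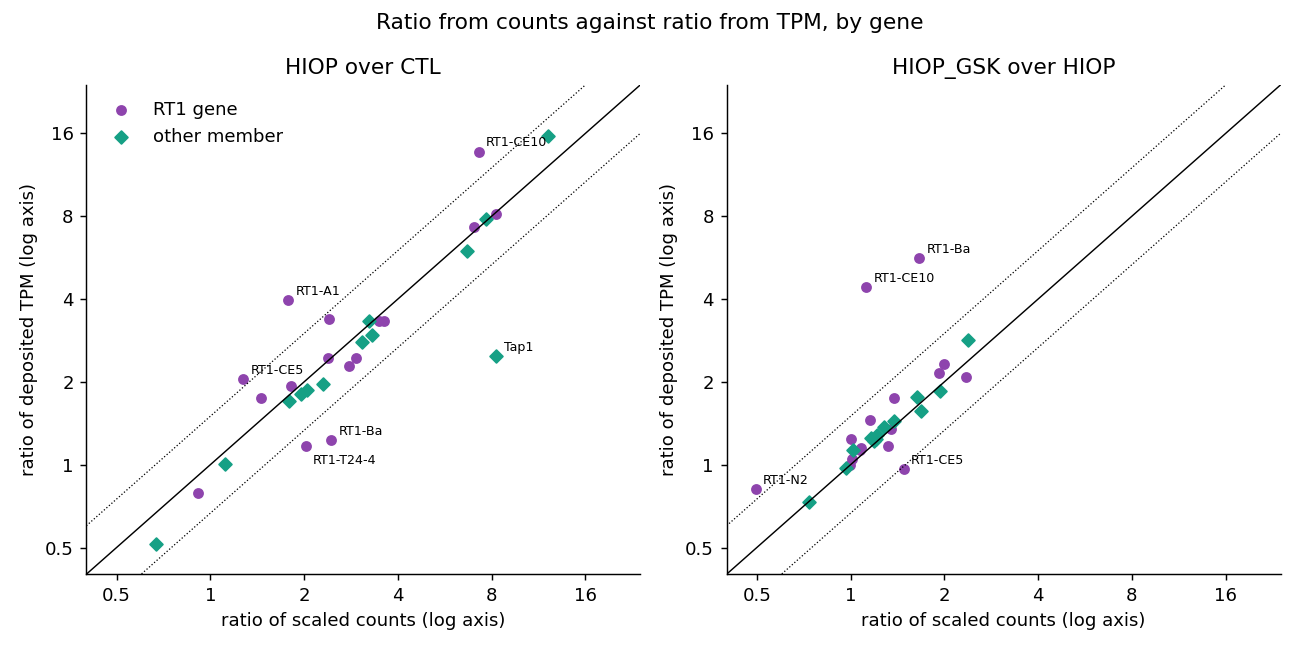
Ratio from scaled counts (x axis) against ratio from deposited TPM (y axis) for 29 members, in HIOP over CTL (left) and HIOP_GSK over HIOP (right), on log axes with equality as a solid line and 1.5 times apart as dotted lines. Most members lie near the line; Tap1 lies below it at 8.29 and 2.48 on the left.

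Other genes of the pathway were taken from lists. Of 16 genes of the interferon gamma and RFX pathway, 14 passed, and in HIOP over CTL 5 of these reached 2-fold upward and none downward. Among all compared genes 9.0% were higher and 8.04% lower. Irf9, part of the type I interferon complex ISGF3, was 6.33-fold (5.52 to 7.29) and Irf1, which binds ISRE letters, 3.90-fold higher (3.40 to 4.49). Socs1 and Ifngr2 also passed the limit, with ratios of 2.75 and 2.02. The RFX subunit genes Rfx5 and Rfxank, which bind MHC promoters, had ratios of 0.887 and 0.971, and Rfxap had no count. In HIOP_GSK over HIOP 1 of the 14 was at least 2-fold higher, with 4.56% of all compared genes higher. It was Irf8, at 2.58-fold (1.97 to 3.41).

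None of 4 chaperones that fold class I chains (Calr, Canx, Pdia3 and Hspa5) was 2-fold different in either of these comparisons. Of 6 lysosomal genes for class II peptides, 1 was at least 2-fold higher in HIOP, the protease gene Ctsl, at 3.44-fold (3.30 to 3.60). For this and the following lists, 9.0% of all compared genes were higher and 8.04% lower in HIOP over CTL. Ctss, the protease that cuts the invariant chain, had 198, 193 and 299 counts. Of 7 cross-presentation and trimming genes, 4 reached 2-fold in HIOP over CTL. Among them Lnpep, an endosomal peptide-trimming enzyme, had 12, 442 and 315 counts but is listed at a TPM of 0 in each library, and Cybb, of the phagocyte oxidase, had 54, 183 and 761. Of 6 costimulation and MHC-like genes that passed, 2 reached 2-fold upward in HIOP and 1 downward. Cd80, with 3, 23 and 19 counts, was among the upward ones. Cd80 and Lnpep passed the filter only through an ischemic library, so their direction was partly set by the filter. Cd274, which encodes the checkpoint ligand PD-L1, had 45, 280 and 524 counts and was 5.85-fold higher in HIOP (4.26 to 8.20). Mr1, a class I-like gene, had 47, 12 and 24 counts and was 4.17-fold lower (2.18 to 8.63).

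In whole retina, fewer cells of a type and less RNA per cell cannot be told apart. Rod and other retinal markers were abundant in all libraries (8 genes, summed 24601, 21523 and 14955 CPM in CTL, HIOP and HIOP_GSK). Sums of myeloid markers had the same order of libraries as the class I and class II sums. The 11 matched microglia and macrophage markers summed to 43.8, 78.7 and 167 CPM. In HIOP over CTL 4 of them were higher and 3 lower at 2-fold, against 9.0% and 8.04% of all compared genes. The lower ones were Cx3cr1, P2ry12 and Tmem119 of resting microglia. In HIOP_GSK over HIOP 8 were higher, against 4.56% of all compared genes. Trem2, among these 8, passed the filter only through HIOP_GSK, so its direction was partly set by the filter. The 9 matched monocyte and neutrophil markers summed to 12.2, 247 and 317 CPM, with 6 at 0 in CTL and Mpo at 0 in all. By TPM these sums were 16.6, 459 and 472. Of the 7 that passed, 1 was at least 2-fold higher and 1 lower in HIOP_GSK over HIOP, against 4.56% and 1.69% of all compared genes. The higher one was Csf3r (360 and 933 counts in HIOP and HIOP_GSK) and the lower one Trem1 (103 and 30). S100a9 had 984 and 579 counts there, within 2-fold. Ptprc, the leukocyte antigen CD45, had 42, 420 and 642 counts, and Itgax, a dendritic cell and macrophage integrin, 4, 145 and 317. Itgax passed the filter only through the ischemic libraries. The 8 dendritic cell markers summed to 13.0, 20.8 and 32.1 CPM, of which Xcr1, Ccr7 and Batf3 were at 0 in CTL. Itgax alone carried the higher sums, since Flt3 had 60, 24 and 34 counts and Zbtb46 had 142, 166 and 119. T and NK cell markers summed to 6.34, 4.91 and 5.78 CPM, most of it from Cd4, which macrophages of the rat also express, and Cd3e had 5, 3 and 2 counts. The 4 matched B cell markers summed to 1.55, 1.29 and 1.51 CPM. Surface epithelium markers summed to 192, 11.3 and 51.7 CPM and lens markers to 394, 1008 and 4730. Endothelial markers summed to 637, 377 and 461 CPM, of which Kdr made up 570, 299 and 316, while Vwf stood at 35.2, 48.95 and 104 CPM. The part of these cells and tissues in the differences of the MHC genes was not tested.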

How the data were processed

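Deposited counts are whole numbers per gene from the authors, not normalized. The genome Rnor_6.0 and the tools RSEM 1.3.1 and STAR 2.5.4b appear, with no roles, per the submitters' processing notes. The deposited TPM values sum to 1e+06 per library and served for levels between genes and as an alternative. Per the labels' protocols, 3 µg of RNA per sample entered a directional library. Overlapping genes are uncertain, since whether counting used strand is not given in the sources used here.

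Scaling used edgeR 4.0.16 in R 4.3.3, and its TMM factors were 1.000 (CTL), 0.994 (HIOP) and 1.006 (HIOP_GSK). The filter on low values, CPM 1 or more in any library, kept 15543 genes. Log2 ratios used a prior count of 2 and a limit of 2-fold. Intervals are exact Clopper-Pearson at 95%. The reads carry no molecular identifiers and may repeat a molecule, so intervals and the floor of 3 counts cover counting error only. Functions were tested on simulated counts.

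Class II genes are RT1- symbols that go on with Ba, Bb, D or H. Members past the filter could be named, and class II genes also below it. Up to 5 per role with the largest interval bound were described in full, with B2m, Tap1, Psmb8, Psmb9, Psmb10, Cd74, Nlrc5 and Ciita, and up to 4 per other list. Names beyond this rule, such as those of count sentences and RT1-M3-1, were chosen after their values were seen. The members and lists were chosen with earlier results of these data known. Of the listed genes outside the members, 7 were not matched by symbol and are not analysed here. Alternatives were total counts, DESeq2 1.42.0 size factors, scaling without mitochondrial and the 20 most abundant genes, TPM as deposited (pseudocount 0.5), leaving out the filter or raising it to CPM 5, a prior count of 0.5 or 10, a limit of 1.5-fold, and class I paralogs summed to 1 feature. Protein identity was not computed. 1 gene of the interferon gamma and RFX list is counted there but not reported here by name.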

Additional observations from a re-analysis of the deposited data

How the results depend on the processing

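No paired analysis was possible because each group holds 1 library. With 1 library per group, leaving out a library leaves no comparison. The 20 members at least 2-fold higher in HIOP over CTL numbered 17 to 21 under the other scalings, filters, prior counts and TPM, 24 at a limit of 1.5-fold, and 13 when the class I paralogs were summed to 1 feature, which leaves fewer features. The 23 higher in HIOP_GSK over CTL numbered 15 with that sum. The 2 members higher in HIOP_GSK over HIOP became 3 with total counts, which add RT1-A1, and 3 without mitochondrial and the 20 most abundant genes, where RT1-T24-1 newly passes the filter. They became 4 with TPM (Tap1, RT1-A1, RT1-Ba and RT1-CE10), 6 without the filter, 1 with the filter at CPM 5 and 9 at a limit of 1.5-fold. RT1-Bb lost its call with TPM (log2 ratio 0.85) and left the comparison at CPM 5. The 0 lower ones became 1 with a prior count of 0.5 and 1 at a limit of 1.5-fold. Without the filter, the members lower in HIOP over CTL numbered 3 in place of 0, and those lower in HIOP_GSK over CTL 2 in place of 1. The last of these counts was 0 with total counts, with a prior count of 10 and without mitochondrial and the 20 most abundant genes. The class II median log2 ratio without the filter was 0.56 for HIOP and 1.37 for HIOP_GSK, each over CTL, since members near 0 counts enter. With TPM, the log2 ratio of the class I sum was 1.68 for HIOP and 1.95 for HIOP_GSK, each over CTL, and that of the class II sum was 1.06 in HIOP_GSK over HIOP and 2.47 in HIOP_GSK over CTL. No result called at 2-fold changed its direction under these alternatives. The cause of the shifts with TPM was not tested. Depth limits the class II genes, Tap2, Psmb8, Psmb9 and Nlrc5 among others, which had 35 counts or fewer each in CTL.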
